A study of Mus musculus with 6 samples.

Results

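The 46 protein-coding genes described here are the mitochondrial carriers of the mouse whose symbol is Slc25a followed by a number, with the citrate carrier Slc25a1 left out. They were read in a table of acetylated histone H3 (H3ac) with 24431 regions, in which a region was assigned to a carrier where it contained, or lay within 1 kb of, a protein-coding start site of that gene (GENCODE M21, GRCm38/mm10). By this rule 34 of the 46 carriers had a region, and Slc25a21 and Slc25a25 had 2 each, so that 36 of the 24431 regions were carrier regions. H3ac was profiled by CUT&RUN, in which an antibody guides a nuclease that releases the marked chromatin fragments for sequencing. The cells were mesenchymal stem cells (MSCs) grown at 2% oxygen in αMEM with 10% FBS and 1% penicillin/streptomycin. The 3 groups were Young (mice 3 to 5 months old, untreated cells), Old (18 to 22 months, untreated) and OldAcetate (18 to 22 months, cells kept for 3 days with 5 mM sodium acetate), with 2 libraries each. The labels do not say whether the 2 libraries of a group came from separate mice or cultures, so the p-values measure the spread between these libraries, which may be technical.

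Mitochondrial carriers are small proteins of the inner mitochondrial membrane that exchange metabolites, nucleotides and cofactors between the matrix and the cytosol. They share one fold built from repeated units and differ in the substrate they bind, so that the family as a whole sets which molecules can leave or enter the matrix. Acetylation of histone H3 marks the promoters of active genes, and the acetyl groups come from acetyl-CoA, which is made in mitochondria and in the cytosol.

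Promoter sequences of carriers with and without a region looked alike in base composition. Windows from 250 bases before to 50 bases after a start site (RefSeq, GRCm38.p6) were found for 27 carriers with a region (36 windows) and 8 carriers without one (9 windows). The median GC content was 58.8% in the first set and 59.0% in the second, against 52.7% over 32851 windows of all genes. The ratio of observed to computed CpG dinucleotides had a median of 0.58 with a region, 0.59 without one and 0.38 over all windows. All 36 windows of the first set lay wholly inside an H3ac region. The sequences shown are those of the 3 adenine nucleotide carriers (among them, Slc25a4 alone had a region), of Slc25a29 and of Slc25a11. Slc25a29 was the carrier called between Old and Young in the values as given. Slc25a11 had the lowest unadjusted p of any comparison after scaling, that of OldAcetate with Young, in which it was not called. Capitals mark the CpG dinucleotides. The window of Slc25a4 is chr8:46211013-46211312 on the minus strand, and that of Slc25a5 is chrX:36795347-36795646 on the plus strand. The window of Slc25a31 is chr3:40708621-40708920 on the plus strand. Slc25a11 is shown at chr11:70646990-70647289 and Slc25a29 at chr12:108835827-108836126, both on the minus strand.
Slc25a4: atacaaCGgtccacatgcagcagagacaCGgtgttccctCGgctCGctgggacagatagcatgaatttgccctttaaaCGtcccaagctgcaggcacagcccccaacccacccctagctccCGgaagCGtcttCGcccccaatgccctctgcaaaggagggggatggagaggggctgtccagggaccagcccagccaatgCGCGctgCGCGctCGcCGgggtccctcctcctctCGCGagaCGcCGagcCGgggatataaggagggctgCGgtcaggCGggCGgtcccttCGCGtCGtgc
Slc25a5: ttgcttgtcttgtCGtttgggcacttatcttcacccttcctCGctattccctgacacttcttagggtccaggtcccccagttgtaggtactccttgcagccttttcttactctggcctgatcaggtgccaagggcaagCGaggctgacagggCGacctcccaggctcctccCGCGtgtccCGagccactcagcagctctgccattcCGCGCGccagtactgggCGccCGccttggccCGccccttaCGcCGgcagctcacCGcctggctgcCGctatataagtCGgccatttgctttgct
Slc25a31: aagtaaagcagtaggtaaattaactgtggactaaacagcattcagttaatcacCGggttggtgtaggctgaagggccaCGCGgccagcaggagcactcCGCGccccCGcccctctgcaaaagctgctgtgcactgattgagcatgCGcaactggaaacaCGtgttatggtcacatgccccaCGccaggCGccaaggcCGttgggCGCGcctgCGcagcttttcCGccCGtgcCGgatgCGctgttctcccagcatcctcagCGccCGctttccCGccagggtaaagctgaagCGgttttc
Slc25a11: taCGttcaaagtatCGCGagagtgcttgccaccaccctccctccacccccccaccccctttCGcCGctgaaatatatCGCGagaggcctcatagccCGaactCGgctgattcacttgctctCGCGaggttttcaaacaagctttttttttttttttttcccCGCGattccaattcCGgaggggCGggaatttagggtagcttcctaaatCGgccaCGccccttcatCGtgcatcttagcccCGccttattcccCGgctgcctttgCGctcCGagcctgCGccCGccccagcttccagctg
Slc25a29: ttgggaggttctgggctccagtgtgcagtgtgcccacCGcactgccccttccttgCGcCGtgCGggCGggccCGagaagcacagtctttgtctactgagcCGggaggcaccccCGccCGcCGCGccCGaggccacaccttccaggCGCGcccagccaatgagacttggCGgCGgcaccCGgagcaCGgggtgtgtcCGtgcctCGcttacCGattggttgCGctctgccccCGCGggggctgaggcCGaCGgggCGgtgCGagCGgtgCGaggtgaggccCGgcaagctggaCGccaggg
The windows held 25 CpG dinucleotides in Slc25a4, 18 in Slc25a5, 22 in Slc25a31, 24 in Slc25a11 and 32 in Slc25a29. Among these windows alone, the counts of Slc25a5 and Slc25a31, which had no region, were below those of the 3 carriers shown that had one. The order did not hold over all carrier windows. Windows with a region held from 3 (Slc25a21) to 51 (Slc25a15) CpG dinucleotides, and those without one from 1 (Slc25a34) to 22 (Slc25a31). The median ratio of observed to computed CpG was alike in both sets, at 0.58 with a region and 0.59 without one.

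Words known from promoters of mitochondrial genes were searched in these windows. The letters GCATGCGC (core of the NRF1 motif) were in none of the 36 windows with a region and in 2 of the 9 without one (22.2%), those of Slc25a31 and Slc25a54, against 2.71% of all windows. The ETS word CCGGAAGT was found in Slc25a20 alone (3.89% of all windows), and the ERR word CAAGGTCA in none (1.56%). The CRE TGACGTCA was in Slc25a25 and Slc25a36, 5.56% of the 36 windows (1.79% of all windows), and the YY1 core AAGATGGC in Slc25a3 (2.75%). The E-box CACGTG was in 6 of the 36 windows with a region (16.7%), those of Slc25a13, Slc25a14, Slc25a15, Slc25a33 and Slc25a36, and in that of Slc25a31 (7.15% of all windows). The TATA box letters TATAAA were in Slc25a21 and Slc25a18 (13.6% of all windows). Both strands were searched. The E-box and CRE words both hold the letters ACGT. A match says only that the letters are there.

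The values are RPM, the reads in a region relative to the total reads of the library, and where genes are compared they were divided by the length of the region. One read corresponded to between 0.329 and 0.462 RPM, which put the libraries at 2163351 to 3039481 reads in total. The median carrier region held 37.5 to 69.0 reads per library and the lowest 8 to 21. The share of a library's reads that lay in any of the 24431 regions was 64.8% and 57.8% in the Young libraries, 49.9% and 45.9% in the Old libraries and 57.3% and 56.3% in the OldAcetate libraries. It was thus lowest in both Old libraries, and its part in the differences of RPM as given was not tested. Old replicate 1 stood apart from the other libraries on the first principal component (25.3% of the variance), at 39.9 against -13.8 to 1.0. All 7 MSC markers had a region (Ly6a, Pdgfra, Pdgfrb, Thy1, Eng, Cd44 and Itgb1), with a summed level of 484.8 to 571.8 RPM in Young, 383.4 to 414.6 in Old and 491.8 to 508.1 in OldAcetate. Of 6 haematopoietic markers, Csf1r, Cd68 and Spi1 had a region (summed 70.7 to 77.6 RPM in Young, 55.3 to 60.1 in Old, 58.5 to 70.1 in OldAcetate), whereas Ptprc, Adgre1 and Itgam did not. None of the 5 endothelial markers (Pecam1, Cdh5, Kdr, Tek and Tie1) had one. Whether the marker regions also hold start sites of other genes was not examined, so their reads may not belong to the markers alone. The part of these marker levels in the carrier values was not tested, and in such bulk libraries fewer cells with the mark and less of the mark per cell cannot be told apart.

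Of the 46 carriers, 73.9% had an H3ac region at a start site, against 57.2% of the 21866 protein-coding genes. All 36 carrier regions contained a carrier start site, so a limit of 0 bp in place of 1 kb gave the same 34 carriers. With a limit of 5 kb, 37 carriers had a region. The regions were 2000 to 57000 bp long with a median of 7000 bp, against 5500 bp over all regions. In 25 of the 36 no other protein-coding gene started within reach, whereas 11 were shared and their reads cannot be assigned to one gene. The longest, at Slc25a22 (chr7:141428501-141485500), also held the start sites of Pnpla2, Pidd1, Cend1, Cracr2b, Tspan4, Polr2l, Rplp2 and Cd151. The region of Slc25a11 (chr11:70645501-70660500) was shared with Rnf167, Pfn1 and Eno3. The others with a second gene were Slc25a10 with Mrpl12, Slc25a23 with Crb3, Slc25a27 with Cyp39a1, Slc25a32 with Dcaf13 and Slc25a35 with Rangrf. The list of shared regions ends with Slc25a40 and Dbf4, Slc25a45 and Frmd8, Slc25a46 and B930094E09Rik, and the second region of Slc25a25 with Naif1.

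**Figure D1:**
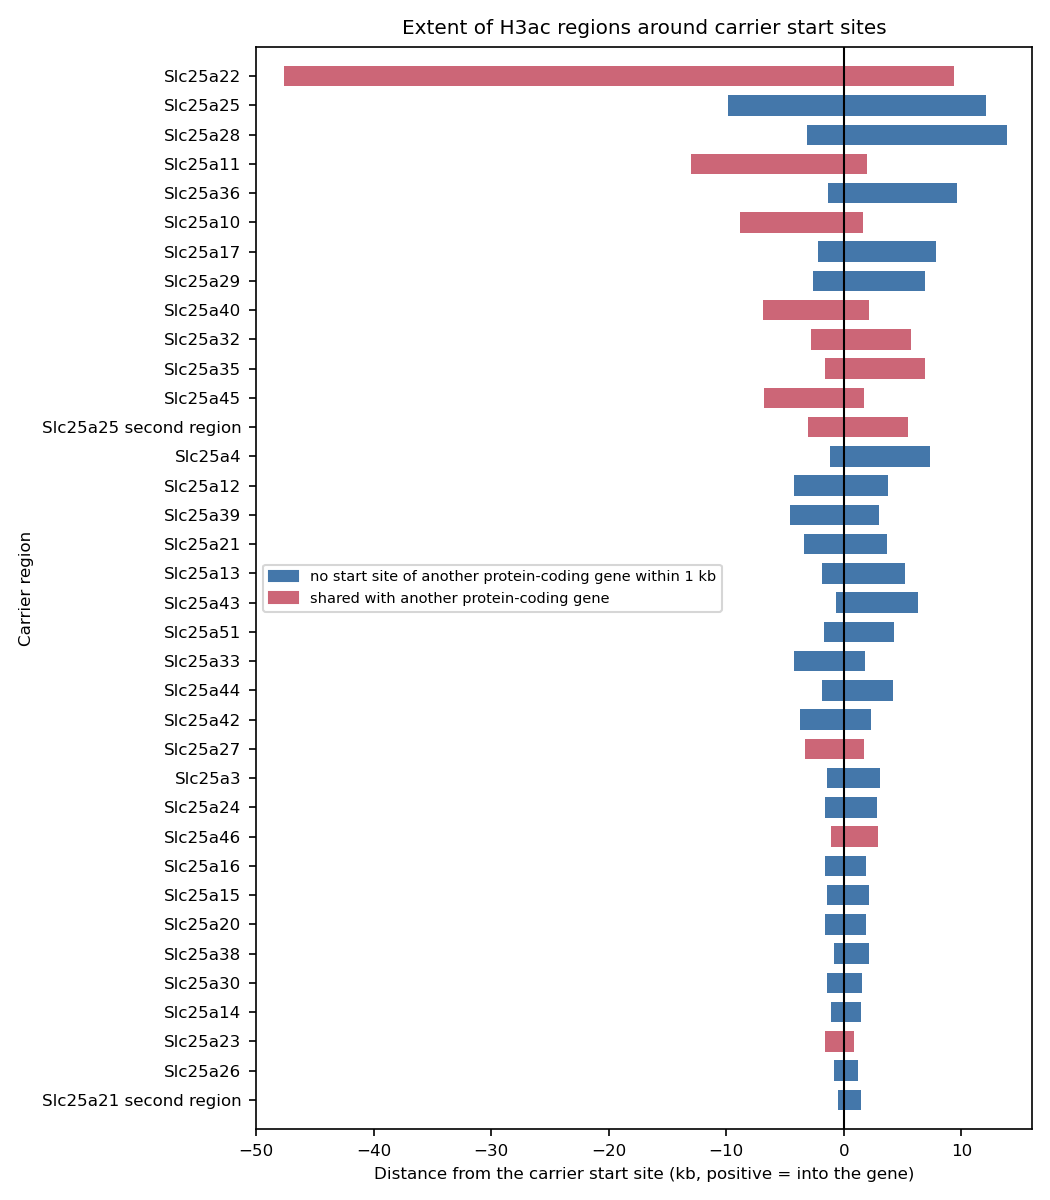
Extent of the 36 carrier regions relative to a start site of the carrier (0 on the x axis, in kb, positive values lie in the direction of transcription). Each bar is a region, red where another protein-coding gene starts within 1 kb of it (11 regions) and blue otherwise (25 regions), and every bar crosses 0.

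The 12 carriers without a region fell in differing numbers into the roles of the family. These roles hold 1 to 9 carriers each, and the spread was not tested. A region was present at 3 of 8 carriers without an assigned substrate and at 1 of 3 adenine nucleotide carriers. It was present at 8 of 9 cofactor and nucleotide carriers and at 3 of 3 dicarboxylate and oxoacid carriers. Those without a region included Slc25a5 and Slc25a31, which like Slc25a4 exchange ADP and ATP. Their nearest regions were 6350 and 34646 bp from a start site. Mitoferrin Slc25a37, which imports iron, was 176982 bp from a region. The glutamate carrier Slc25a18 lay 45423 bp away, the ornithine carrier Slc25a2 3756 bp and Slc25a41, of the ATP-Mg/phosphate carriers, 8147 bp. A further 5 members have no substrate assigned here, and their nearest regions were 3321 bp (Slc25a34), 4862 bp (Slc25a47), 32146 bp (Slc25a48), 10201 bp (Slc25a53) and 17469 bp (Slc25a54) away. For 6 of the 12 the nearest region was thus under 10 kb from a start site. The absence of a region in this table does not show that H3ac was absent.

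Each region name carries a code of the letters Y, O and AC, which the labels do not define. In 33 of the 36 carrier regions (91.7%) the code held all 3, against 91.1% of regions within 1 kb of any protein-coding start site and 80.6% of all regions. Slc25a26, the carrier of S-adenosylmethionine, and Slc25a44, the carrier of branched-chain amino acids, were coded AC+Y. Slc25a23 was coded O+Y.

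The density of H3ac differed between carriers and, within a carrier, between libraries. The mean over the 6 libraries was 2.14 to 4.48 RPM per kb with a median of 2.84, against 2.70 over all regions and 3.04 over regions near protein-coding start sites. It lay above the median of all regions in 22 of the 36 and above that of promoter regions in 15. The highest densities were at Slc25a24 (4.48 RPM per kb), the second region of Slc25a21 (4.34), Slc25a15 (4.33) and Slc25a46 (4.05). The lowest were at Slc25a43 (2.14), Slc25a10 (2.34), Slc25a35 (2.35) and Slc25a25 (2.36). By group, Slc25a24 was highest in Young (4.97 RPM per kb), the second region of Slc25a21 in Old (4.15) and Slc25a46 in OldAcetate (5.04, against 4.00 in Young and 3.10 in Old). Slc25a24, for example, ranged from 17.6 to 26.3 RPM over its 6 libraries.

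**Figure D2:**
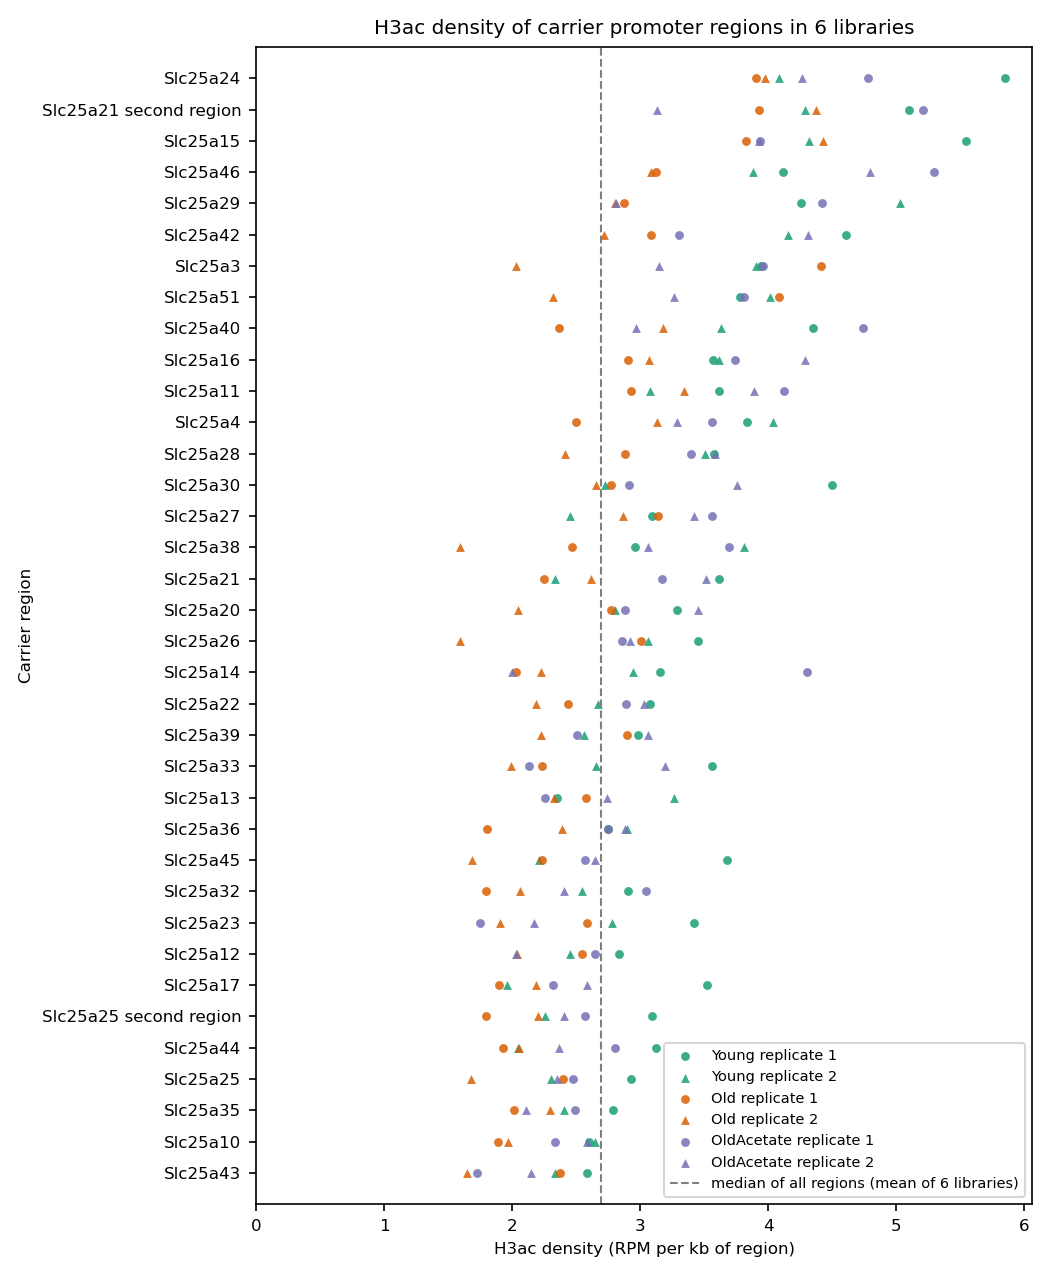
H3ac density (x axis, RPM per kb) of the 36 carrier regions (y axis, ordered by the mean of 6 libraries) in each library, circles for replicate 1 and triangles for replicate 2. The dashed line is the median of all regions at 2.70 RPM per kb, and the symbols of the 3 groups overlap along most rows, with Old often at the left.

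Among the carriers that supply oxidative phosphorylation, Slc25a4 had separate groups and Slc25a3 had not. The region of Slc25a4, the ADP/ATP carrier of heart and muscle (chr8:46204001-46212500), had 32.6 and 34.3 RPM in Young, against 21.3 and 26.6 in Old and 30.2 and 27.9 in OldAcetate. Both Old values were below, and the OldAcetate values lay between Old and Young. Over all regions, both Old values were below both Young values in 60.2%, and both OldAcetate values above both Old values in 47.1%. These shares apply to every carrier described here or below with such a separation. Slc25a3, the phosphate carrier that also brings copper into the matrix (chr10:91121001-91125500), had 17.8 and 17.6 RPM in Young, against 19.9 and 9.15 in Old and 17.8 and 14.2 in OldAcetate. At Slc25a3 the Old libraries were the highest and the lowest of all 6, so the groups overlapped.

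The calcium-regulated carriers exchange ATP-Mg for phosphate and so change the adenine nucleotide content of the matrix. Slc25a24 had 22.4 ± 5.61 RPM in Young, 17.7 ± 0.235 in Old and 20.3 ± 1.64 in OldAcetate (mean ± SD, n = 2 libraries, here and for the other carriers given by group). The larger region of Slc25a25 had 57.6 ± 9.78, 44.8 ± 11.1 and 53.1 ± 1.92 RPM in the same order, and its second region 22.8 ± 5.04, 17.0 ± 2.43 and 21.1 ± 0.993 RPM. Slc25a23 departed from this order, with 7.75 ± 1.14 RPM in Young, 5.62 ± 1.20 in Old and 4.90 ± 0.745 in OldAcetate. It was one of the lowest carrier regions, with 12 to 26 reads per library.

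Of the carriers of dicarboxylates and oxoacids, Slc25a11 had its highest values with acetate. Slc25a11, which exchanges 2-oxoglutarate for malate in the malate-aspartate shuttle, had 54.3 and 46.2 RPM in Young, against 43.9 and 50.1 in Old and 61.8 and 58.4 in OldAcetate. Both OldAcetate values were above the 4 others, while Young and Old overlapped. Slc25a10, which exchanges malate or succinate for phosphate, had 27.5 ± 0.331 RPM in Young, 20.3 ± 0.569 in Old and 25.8 ± 1.83 in OldAcetate. Slc25a21, a carrier of oxodicarboxylates, had 20.8 ± 6.36, 17.0 ± 1.82 and 23.4 ± 1.72 RPM in its larger region and 9.39 ± 1.15, 8.30 ± 0.630 and 8.34 ± 2.94 in the second.

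The aspartate/glutamate carriers Slc25a12 and Slc25a13, the other arm of the same shuttle, had overlapping groups. Slc25a12 (chr2:71364001-71372000) had 22.7 and 19.6 RPM in Young, against 20.3 and 16.3 in Old and 21.2 and 16.3 in OldAcetate. Slc25a13 (chr6:6212001-6219000) had 16.5 and 22.9 RPM in Young, against 18.0 and 16.3 in Old and 15.8 and 19.2 in OldAcetate. No group of these carriers stood apart. In the shared region of the glutamate carrier Slc25a22 the values were 175.4 and 152.4 RPM in Young, against 138.7 and 124.5 in Old and 164.7 and 172.7 in OldAcetate, and the Old libraries were below the 4 others.

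The carriers of other amino acids included both regions with the lowest log2 differences between Old and Young, Slc25a38 and Slc25a29. Slc25a29, which transports basic amino acids (chr12:108829001-108838500), had 40.5 and 47.8 RPM in Young, against 27.3 and 26.6 in Old and 42.0 and 26.7 in OldAcetate. Its Old values were close together and below both Young values, whereas one OldAcetate library was at the level of Young and the other at that of Old. Slc25a38, the glycine carrier needed for haem synthesis (chr9:120109501-120112500), had 8.88 and 11.4 RPM in Young, against 7.40 and 4.77 in Old and 11.1 and 9.18 in OldAcetate, from 12 to 33 reads. Old was the lowest group, and Young and OldAcetate overlapped. The ornithine carrier Slc25a15 had 17.3 ± 3.04 RPM in Young, 14.5 ± 1.49 in Old and 13.8 ± 0.0092 in OldAcetate. Slc25a44 had 15.5 ± 4.60, 11.9 ± 0.547 and 15.5 ± 1.85 RPM.

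Slc25a20, which carries acylcarnitines into the matrix for fatty acid oxidation (chr9:108660501-108664000), had 11.5 and 9.80 RPM in Young, against 9.71 and 7.16 in Old and 10.1 and 12.1 in OldAcetate. Old lay below Young, but the higher Old value and the lower Young value differed by less than the RPM of 1 read.

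Cofactor and nucleotide carriers formed the largest role, with a region at 8 of 9. Slc25a51, the NAD+ carrier (chr4:45404501-45410500), had 22.7 and 24.1 RPM in Young, against 24.5 and 13.9 in Old and 22.8 and 19.6 in OldAcetate. As at Slc25a3, the Old libraries were the highest and the lowest. Slc25a42, a coenzyme A carrier, had 26.3 ± 1.92 RPM in Young, 17.4 ± 1.54 in Old and 22.8 ± 4.27 in OldAcetate, and Slc25a16, also placed with the cofactor carriers, 12.6 ± 0.113, 10.5 ± 0.402 and 14.1 ± 1.35. Slc25a32, the folate carrier, had 23.2 ± 2.14, 16.4 ± 1.59 and 23.2 ± 3.84 RPM, and Slc25a26 had 6.52 ± 0.553, 4.60 ± 2.00 and 5.78 ± 0.0897. The pyrimidine nucleotide carriers were at 18.7 ± 3.86 RPM in Young, 12.7 ± 1.04 in Old and 12.8 and 19.2 in the OldAcetate libraries (Slc25a33) and 31.1 ± 1.13, 23.1 ± 4.51 and 31.0 ± 1.03 RPM in the 3 groups (Slc25a36). Slc25a17, which lies in peroxisomes, had 35.2 and 19.6 RPM in the Young libraries, 20.4 ± 2.07 in Old and 24.5 ± 1.89 in OldAcetate. In 6 of these 8 regions both Old values were below both Young values, against 60.2% of all regions, and in 5 both OldAcetate values were above both Old values, against 47.1%.

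Mitoferrin Slc25a28, of the iron and glutathione carriers, had 60.3 ± 0.870 RPM in Young, 45.0 ± 5.68 in Old and 59.3 ± 2.19 in OldAcetate. The glutathione carrier Slc25a39 had 20.8 ± 2.24, 19.2 ± 3.55 and 20.9 ± 2.92 RPM, and its relative Slc25a40 35.9 ± 4.58, 24.9 ± 5.21 and 34.7 ± 11.3. Of the uncoupling protein-like members, Slc25a27 was the only carrier whose mean was higher in Old than in Young. Slc25a27 (chr17:43665501-43670500) had 15.5 and 12.3 RPM in Young, against 15.7 and 14.3 in Old and 17.8 and 17.1 in OldAcetate, with OldAcetate above the 4 others. Slc25a14 had 7.62 ± 0.384, 5.33 ± 0.342 and 7.88 ± 4.06 RPM and Slc25a30 10.8 ± 3.76, 8.14 ± 0.259 and 10.0 ± 1.79.

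Slc25a46 sits in the outer membrane, where it takes part in mitochondrial fusion and fission, and its 3 groups did not overlap. It had 16.5 and 15.5 RPM in Young, against 12.5 and 12.3 in Old and 21.2 and 19.2 in OldAcetate, with Old lowest and OldAcetate highest. Both Old values were below both Young values in 60.2% of all regions. Both OldAcetate values were above both Old values in 47.1% and above both Young values in 7.6%. After scaling, Old and Young differed by -0.003 (SE 0.22) at Slc25a46. Its region is shared with B930094E09Rik. Of the carriers without an assigned substrate, Slc25a35 had 22.1 ± 2.31, 18.3 ± 1.69 and 19.6 ± 2.29 RPM, Slc25a43 17.2 ± 1.24, 14.1 ± 3.61 and 13.6 ± 2.06, and Slc25a45 25.0 ± 8.81, 16.6 ± 3.28 and 22.2 ± 0.482.

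**Figure D3:**
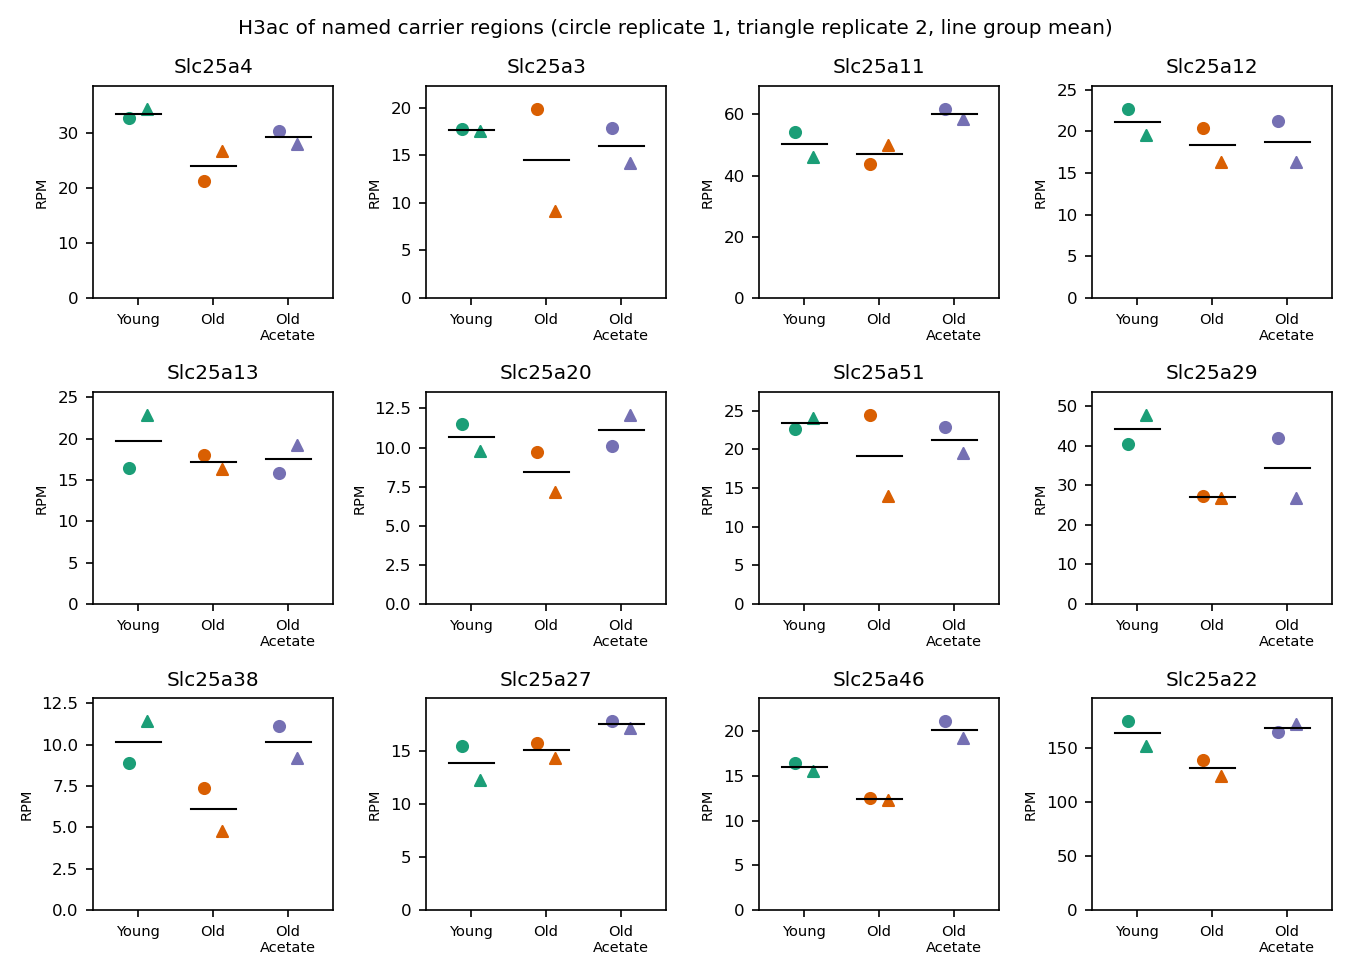
RPM (y axis, from 0) of 12 carrier regions in the 6 libraries, circles for replicate 1, triangles for replicate 2 and a line for the group mean. Old lies below Young without overlap at Slc25a4, Slc25a29, Slc25a38, Slc25a46, Slc25a22 and, by less than 1 read, Slc25a20, and OldAcetate lies above the other groups at Slc25a11, Slc25a27 and Slc25a46. Over all regions, Old lies below Young without overlap in 60.2%, and OldAcetate above Old in 47.1% and above Young in 7.6%.

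Summed over the 36 regions, the Young libraries averaged 970.5 ± 93.6 RPM (SD, n = 2), the Old libraries 754.4 ± 35.9 and the OldAcetate libraries 936.2 ± 20.9. The libraries were at 1036.7 and 904.3 RPM in Young, against 779.8 and 729.0 in Old and 951.0 and 921.4 in OldAcetate. Old was below both other groups without overlap. As a share of the reads in all regions, carriers took 0.158% ± 0.0024 in Young, an equal 0.158% ± 0.0018 in Old and 0.165% ± 0.0016 in OldAcetate (SD, n = 2).

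The comparison of Old with Young asks how H3ac at carrier promoters differs with the age of the mice. In RPM as given, 35 of 36 carrier regions had a lower mean log2 value in Old, with a median difference of -0.36 on the log2(RPM + 0.5) scale. Over all regions 92.1% were lower, with a median of -0.35. Both Old libraries were below both Young libraries in 20 of the 36 (55.6%), against 60.2% of all regions, and above them in 0, against 1.29%. The latter count was 1 without Young replicate 1, against 9.18% of all regions, and 3 without Old replicate 2, against 8.54%. Without Young replicate 2 the former count was 32 of 36, against 82.5% of all regions, and without Old replicate 1 it was 29, against 80.3%. In the limma fit of the values as given, 1 carrier region was called (Benjamini-Hochberg adjusted p under 0.05), against 9.52% of all regions, and 13 had an unadjusted p under 0.05, against 32.0%. This was Slc25a29, which fell by 0.70 on the log2 scale (SE 0.19, adjusted p = 0.0177 with limma), to 61.7% of Young. The call was lost without Young replicate 1 (adjusted p = 0.157 with limma), Young replicate 2 (0.0903) or Old replicate 2 (0.0609), and the number of carrier regions called was 0, 3, 0 and, without Old replicate 1, 7. Slc25a38 had the lowest difference, -0.71 (SE 0.32), but did not pass (adjusted p = 0.115 with limma). Slc25a4 differed by -0.48 (SE 0.20, limma adjusted p = 0.0854) and Slc25a22 by -0.31 (SE 0.12, limma adjusted p = 0.0627).

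Scaling each library to the median of all regions removes the part of the difference that all regions share. On this scale carrier regions had a median difference of -0.01 between Old and Young, with all regions at a median of -0.00 and 20 of the 36 lower in Old (50.8% of all regions). None of the 36 was called with limma, against 0.00819% of all regions, and 1 had an unadjusted p under 0.05, against 5.54%. With edgeR on whole reads and TMM or RLE factors the number called was also 0. The differences ran from -0.36 (Slc25a38) to 0.47 (Slc25a27, SE 0.23, unadjusted p = 0.0442 and adjusted p = 0.894 with limma). Slc25a29 differed by -0.35 (SE 0.17, unadjusted p = 0.0525 with limma) and Slc25a11 by 0.26 (SE 0.13, unadjusted p = 0.0607 with limma). With 1 library left out Slc25a29 was at -0.55 (Young replicate 1) to -0.15 (Young replicate 2) and Slc25a11 at 0.10 (Old replicate 2) to 0.41 (Old replicate 1). Slc25a11 lay on the other side of 0 as given, at -0.09 (SE 0.16). The carriers chosen by role were nearer to 0, at -0.13 (SE 0.18) for Slc25a4, -0.02 (SE 0.25) for Slc25a3 and 0.14 (SE 0.21) for Slc25a12. Slc25a13 was at 0.18 (SE 0.22), Slc25a20 at 0.02 (SE 0.28) and Slc25a51 at 0.02 (SE 0.21). Without scaling the last 4 differences were -0.21 for Slc25a12, -0.17 for Slc25a13, -0.33 for Slc25a20 and -0.33 for Slc25a51.

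**Figure D4:**
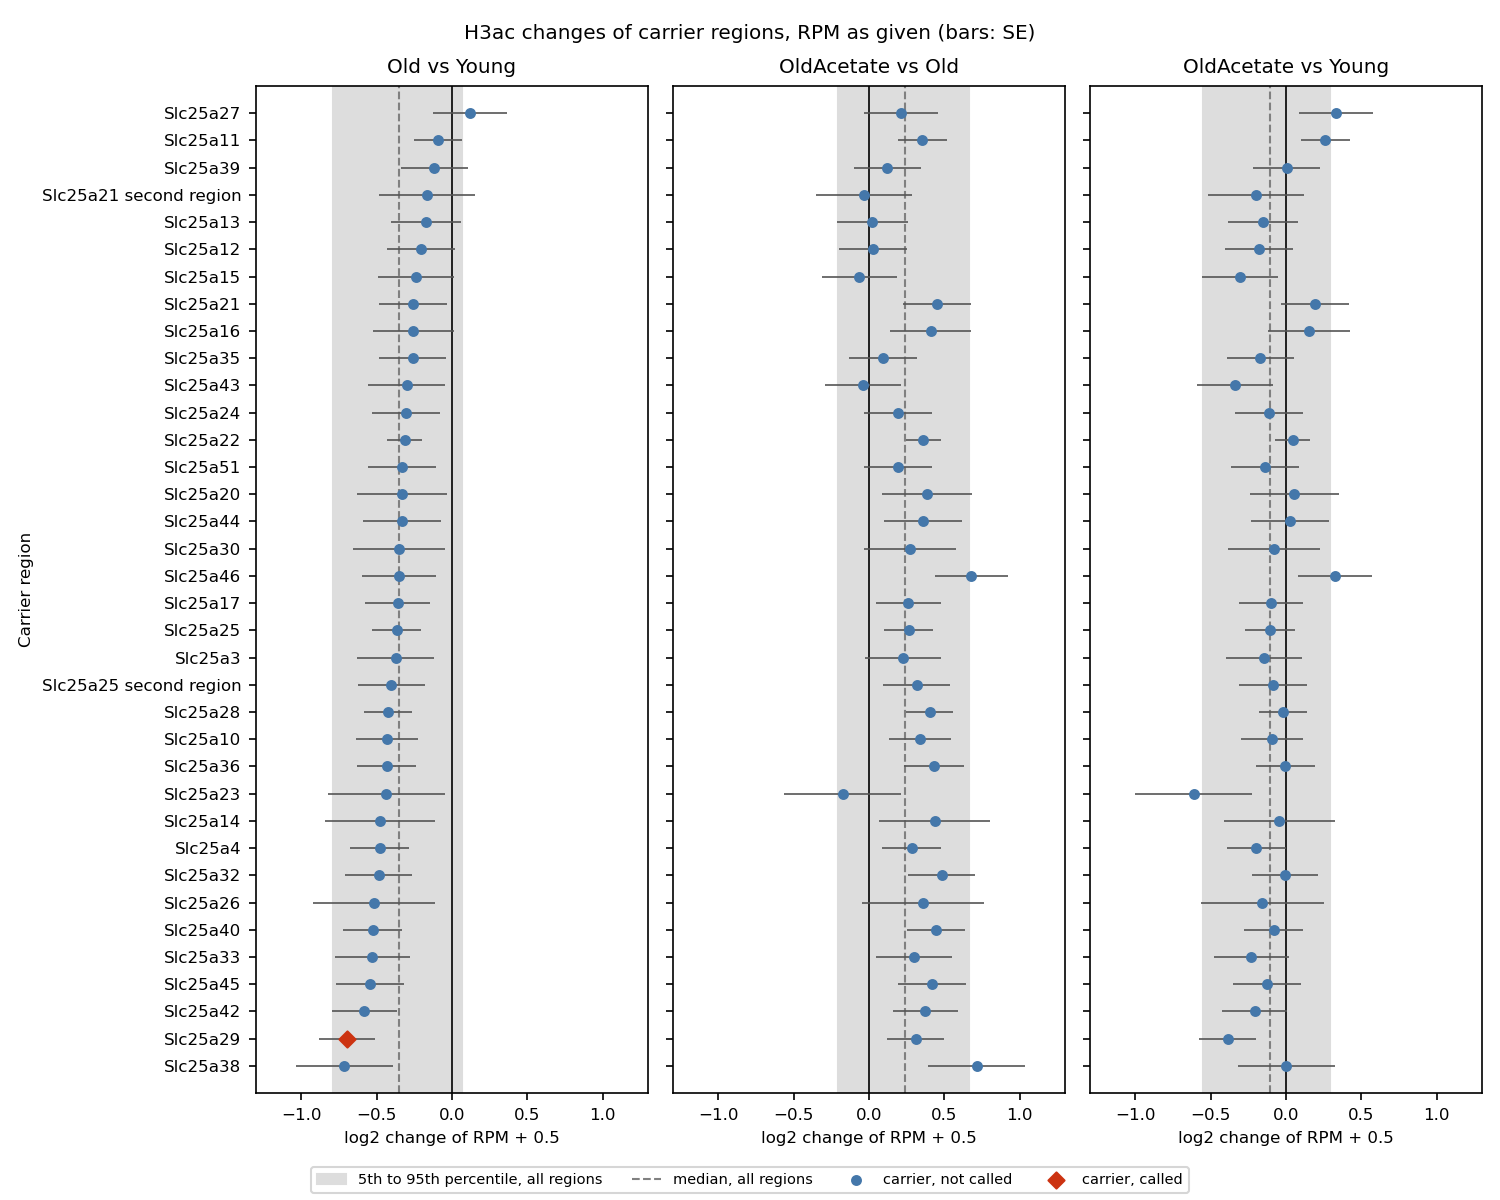
Differences of the 36 carrier regions (x axis, log2 scale of RPM + 0.5, values as given, bars are SE) in the 3 comparisons, ordered by Old vs Young. The grey band spans the 5th to 95th percentile of all regions and the dashed line their median (-0.35, 0.24 and -0.11), and the red diamond is Slc25a29, the single carrier called.

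The comparison of OldAcetate with Old asks what 3 days of acetate did to H3ac in cells of old mice. It uses the same Old libraries as the comparison above, so the directions of the 2 are not independent. In RPM as given, 32 of 36 carrier regions were higher with acetate and 4 lower, where 16.8% of all regions were lower. The median difference was 0.31 on the log2 scale against 0.24 over all regions. Both OldAcetate libraries were above both Old libraries in 20 of the 36 (55.6%), against 47.1% of all regions, and below them in 0, against 3.46%. The second count was 5 without Old replicate 2 (17.8% of all regions), 3 without OldAcetate replicate 1 (12.1%), 2 without OldAcetate replicate 2 (9.95%) and 1 without Old replicate 1 (7.76%). Without Old replicate 1 the first was 28, against 71.8%. None of the 36 was called with limma as given, against 0.311% of all regions, and 9 had an unadjusted p under 0.05, against 18.0%. With edgeR without factors 0 were called too. The nearest were Slc25a22 at 0.36 (SE 0.12, limma adjusted p = 0.111) and Slc25a46 at 0.68 (SE 0.24, limma adjusted p = 0.138). Slc25a38 differed by 0.71 (SE 0.32) and Slc25a11 by 0.35 (SE 0.16).

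After scaling the median over carriers was 0.07 and that over all regions 0.00. Of the 36, 24 were higher and 12 lower, where 49.7% of all regions were lower. The carrier median was 0.013 without Old replicate 1, the library that stood apart, and 0.039 without OldAcetate replicate 1. None was called with limma, against 0.0% of all regions (0 of 24431), and 0 of the 36 had an unadjusted p under 0.05, against 6.24% of all regions. The edgeR fits with TMM and RLE factors also called 0. The differences ran from -0.41 (Slc25a23) to 0.48 (Slc25a38, SE 0.31). Slc25a46 had the lowest p among carriers, at 0.44 (SE 0.22, unadjusted p = 0.0551 and adjusted p = 0.810 with limma), followed by Slc25a38 and Slc25a22 (0.12, SE 0.08). Slc25a4 was at 0.04 (SE 0.18), Slc25a3 at -0.01 (SE 0.25), Slc25a11 at 0.12 (SE 0.13) and Slc25a20 at 0.15 (SE 0.28). The aspartate/glutamate carriers were on the lower side, Slc25a12 at -0.21 (SE 0.21) and Slc25a13 at -0.22 (SE 0.22), and Slc25a51 was at -0.05 (SE 0.21). As given, these 3 and Slc25a3 had differences of 0.03, 0.02, 0.19 and 0.23, above 0.

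OldAcetate and Young were compared last, to place the treated cells beside the untreated young ones. As given, 26 of 36 carrier regions were lower in OldAcetate (69.2% of all regions), with a median difference of -0.10 against -0.11. Both OldAcetate libraries were below both Young libraries in 6 regions (16.7%), against 29.8% of all regions, and above them in 4 (11.1%), against 7.6%. The 4 were Slc25a11, Slc25a27, Slc25a46 and Slc25a16, named after their values were seen. With 1 library left out the first count was 19 (Young replicate 2), 15 (OldAcetate replicate 1), 12 (OldAcetate replicate 2) or 11 (Young replicate 1), when 38.1% to 61.3% of all regions were below. The second was then 14 (Young replicate 1), 9 (OldAcetate replicate 2), 7 (OldAcetate replicate 1) or 5 (Young replicate 2), when 13.5% to 29.7% of all regions were above. No carrier was called as given with limma or edgeR without factors, against 0.0% of all regions with limma, and 1 had an unadjusted p under 0.05, against 6.1%. After scaling 0 of the 36 were called, against 0.0% of all regions, 1 had an unadjusted p under 0.05, against 5.08%, and edgeR called 0. That region was Slc25a11, at 0.37 (SE 0.13, unadjusted p = 0.00761 and adjusted p = 0.964 with limma). Slc25a46 was at 0.44 (SE 0.22) and Slc25a27 at 0.44 (SE 0.23), and the lowest was Slc25a23 at -0.50. The Slc25a11, Slc25a46 and Slc25a27 regions are all shared with other genes.

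By role, the scaled differences between Old and Young had medians from -0.16 over 4 regions of carriers of basic, branched and other amino acids to 0.14 over 3 regions of aspartate and glutamate carriers. The 8 cofactor and nucleotide carriers had a median of -0.11 (6 lower in Old, against 50.8% of all regions). Between OldAcetate and Old their median was 0.13 (7 higher and 1 lower, where 49.7% of all regions were lower). Both comparisons use the same Old libraries, so their directions are not independent. The 4 dicarboxylate and oxoacid regions had medians of 0.14 and 0.11 in these comparisons. As given, the medians between Old and Young were below 0 in these roles, at -0.51, -0.21, -0.46 and -0.21 in the order named, so the sign of the 0.14 of both roles turns with the scaling. After scaling, none of the regions behind these medians was called. As given, Slc25a29 of the first role was called between Old and Young (limma adjusted p = 0.0177).

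The other proteins of carrier biology were taken as a list of 25 genes, and 22 had a region (all but Ucp1, Ucp2 and Tomm22). The list holds the uncoupling proteins, the outer membrane relatives Mtch1 and Mtch2, the TOM and TIM subunits that import carriers, the VDAC pores, the pyruvate carrier and the sideroflexins. In RPM as given, 6 of the 22 were lower in Old than in Young with limma (adjusted p under 0.05) and 0 higher, against 9.52% of all regions called, with a median difference of -0.52 against -0.35. Tomm20, a receptor of the outer membrane, fell by 0.85 on the log2 scale and was higher by 0.89 with acetate (limma adjusted p = 0.0153 and 0.0465), the only gene of the list called in the second comparison, in which 0.311% of all regions were. Its values were 25.3 and 23.3 RPM in Young, against 12.9 and 13.5 in Old and 23.2 and 26.7 in OldAcetate. Also lower in Old were Timm9 (-0.76), Mpc1 (-0.70), Tomm70a (-0.66), Vdac1 (-0.64) and Timm10 (-0.52). Unlike for the carriers, sharing of regions with other genes and dependence on single libraries were not examined for this list. Of the 2 regions of Tomm40 only the one with the higher mean RPM was used. Timm9 and Timm10 form the chaperone that takes carriers across the space between the membranes, Tomm70a is the receptor that binds them first, and Mpc1 is a subunit of the pyruvate carrier. Both Old libraries were below both Young libraries in 17 of the 22, against 60.2% of all regions, and both OldAcetate libraries above both Old in 11, against 47.1%. After scaling none of the 22 was called with limma in Old vs Young, OldAcetate vs Old or OldAcetate vs Young. Of all regions, 0.00819%, 0.0% and 0.0% were called in these comparisons. In the same order, 1, 2 and 0 of the 22 had an unadjusted p under 0.05, against 5.54%, 6.24% and 5.08% of all regions. The medians of the list were -0.17, 0.06 and -0.05.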

How the data were processed

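H3ac CUT&RUN libraries of mouse MSCs were read from 1 table of 24431 regions and 6 columns, and no column was left unmatched. The deposited values are RPM that the authors computed per region. The file is named RPKM, but every column had a smallest increment, of which 100% of its values were integer multiples (tolerance 0.01) in short and long regions alike, and this step gave the reads per region and the total per library. Yeast DNA was added when the reaction was stopped, and whether it was used for scaling is not given in the sources used here. The submitters' processing notes name Bowtie2, Picard and mm10. The region caller and the counting are not given in the sources used here, nor whether Old and Young regions were called on pooled libraries. The step of Young replicate 2 gave a total of 2448203.5, so a step may stand for a pair of reads.

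Regions were linked to GENCODE M21 start sites. Differences were tested with limma 3.58.1 (R 4.3.3) on log2(RPM + 0.5), which understates changes of low regions. All 6 libraries entered 1 fit of group means (eBayes with trend and robust, two-sided, Benjamini-Hochberg over all regions, threshold 0.05), after median scaling and as given. edgeR 4.0.16 (quasi-likelihood) on the recovered reads called 6 (TMM) and 5 (RLE) of all regions in Old vs Young and 0 in the other comparisons, and without factors 2524, 21 and 0. Alternatives were pseudocounts of 0.1 and 1, quantile normalization, fits without the lowest 25% of regions, a replicate block, only the compared libraries, plain eBayes, other distances and leaving out each library. Counting error alone limits regions of few reads.

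The carriers, the gene lists and the rules were chosen with earlier results of these data known. Named with full values were carriers of central metabolism by role (Slc25a3, Slc25a4, Slc25a11, Slc25a12, Slc25a13, Slc25a20 and Slc25a51), every carrier region called, and the 3 with the lowest p per comparison after scaling. Other regions are given by level. Promoter windows are RefSeq's (GRCm38.p6). The distance of 1 carrier without a region is not reported here.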

Additional observations from a re-analysis of the deposited data

How the results depend on the processing

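After scaling, 0 carrier regions were called in each of the 3 comparisons under every alternative but one, no scaling, which called 1 in Old vs Young and gave median carrier differences of -0.36 (Old vs Young), 0.31 (OldAcetate vs Old) and -0.10 (OldAcetate vs Young). In the values as given, Old vs Young had 1 call, which became 2 without the lowest 25% of regions, 3 with the replicate block and 0 with plain eBayes, and 0 to 7 when 1 library was left out (0 without Young replicate 1 or Old replicate 2, 3 without Young replicate 2, 7 without Old replicate 1). OldAcetate vs Old had 0 calls, 1 with only its 4 libraries and 0 to 1 when 1 library was left out (1 without Young replicate 1 or Young replicate 2). Libraries with the same replicate number did not deviate together over all regions (correlations of deviations 0.01, -0.03 and -0.04). The median region held 31.0 to 56.0 reads per library, so counting error could hide a pairing, and these correlations cannot exclude one. With the replicate block 0 carriers were called after scaling. Of 22 named differences, the direction turned without scaling in Old vs Young for Slc25a11 (-0.093), Slc25a12 (-0.21), Slc25a13 (-0.17), Slc25a20 (-0.33) and Slc25a51 (-0.33), and in OldAcetate vs Old for Slc25a3 (0.23), Slc25a12 (0.027), Slc25a13 (0.021) and Slc25a51 (0.19). With edgeR it turned for Slc25a3 in Old vs Young (0.046 with TMM and 0.048 with RLE factors). Leaving out 1 library gave ranges in Old vs Young of -0.50 to 0.45 (Slc25a3), -0.35 to 0.089 (Slc25a4), -0.14 to 0.49 (Slc25a13), -0.13 to 0.16 (Slc25a20) and -0.32 to 0.35 (Slc25a51), and in OldAcetate vs Old of -0.49 to 0.47 (Slc25a3), -0.18 to 0.27 (Slc25a4), -0.040 to 0.27 (Slc25a11) and -0.38 to 0.29 (Slc25a51). Without crossing 0, OldAcetate vs Old ranged from 0.25 to 0.71 (Slc25a38, without Old replicate 2 or Old replicate 1), -0.38 to -0.040 (Slc25a12, without OldAcetate replicate 1 or 2) and 0.0011 to 0.29 (Slc25a20, without Old replicate 2 or Old replicate 1). The cause of these changes was not tested. The 5 kb limit gave 37 carriers with a region. Leaving out the 11 shared regions and edgeR without factors were added after seeing the data, and neither changed the number of calls.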
